A study of Mus musculus with 32 samples.

Results

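The enzymes that join glutathione, glucuronate or sulfate to other molecules were followed in lupus kidneys by expression array. They were all genes on the array whose mouse symbol began with Gsta, Gstk, Gstm, Gsto, Gstp, Gstt, Gstz, Mgst, Ugt1, Ugt2, Ugt3 or Sult, and 42 of the 15780 named genes met this rule. These were 3 Gsta, 1 Gstk, 7 Gstm, 2 Gsto, 1 Gstp, 4 Gstt, 1 Gstz, 3 Mgst, 7 Ugt2, 1 Ugt3 and 12 Sult genes, in 11 classes, and a Ugt1 gene was not analysed here. RNA from 32 whole kidneys was measured, 1 kidney on each array, and the methods of the paper, which list young and nephritic mice but not the groups used here, state that kidneys were perfused with saline. NZM2410 mice, an inbred lupus strain, were in remission after an adenovirus encoding BAFF-R-Ig, a soluble receptor that takes up the B cell survival factor BAFF (6 kidneys, "NZM2410 kidneys"). All other kidneys came from NZB/W mice, the F1 hybrids of NZB and NZW mice. Of these, 5 were in late remission after CTLA4Ig and an adenovirus encoding TACI-Ig, which takes up both BAFF and APRIL ("TACI-Ig kidneys"). Triple therapy (cyclophosphamide, CTLA4Ig and an antibody to CD154) had been given to mice in late remission (6 kidneys) and to mice in early remission (8 kidneys). The remaining 7 kidneys came from untreated mice aged 30 weeks without proteinuria ("30-week kidneys"). The age of the mice in remission is not given in the labels. Strain, adenovirus and remission differ together between the NZM2410 kidneys and the 30-week kidneys and cannot be told apart. The TACI-Ig kidneys share adenovirus and remission with the NZM2410 kidneys, though the labels name the stage of remission only for the TACI-Ig kidneys. Strain, the encoded receptor and CTLA4Ig differ together between these 2 groups and cannot be told apart either. The stage of remission and age may differ as well.

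Conjugation makes reactive or fat-soluble molecules easier to excrete. Glutathione S-transferases add the tripeptide glutathione to electrophiles, UDP-glucuronosyltransferases add glucuronic acid from UDP-glucuronate, and sulfotransferases add sulfate from the carrier PAPS. The proximal tubule of the kidney is rich in these enzymes, and its brush border also trims glutathione conjugates on the way to mercapturates, which leave in the urine. Cytosolic glutathione transferases form the alpha (Gsta), mu (Gstm), pi (Gstp), theta (Gstt), omega (Gsto) and zeta (Gstz) classes. The kappa class (Gstk) lies in mitochondria and peroxisomes, and the Mgst proteins lie in membranes.

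Values are log2 expression values, so that a difference of 1 is a change by a factor of 2. Array medians ranged from 7.04 to 7.17. The values of the NZM2410 arrays were more widely spread (SD 2.11 to 2.17) than those of the NZB/W arrays (SD 1.90 to 2.03). The tissue label was borne out by proximal tubule markers, of which the phosphate transporter Slc34a1 had a value of at least 12.13 in every kidney. Marker genes of the adrenal cortex, a gland that lies on the kidney, varied widely between kidneys (Cyp21a1 5.18 to 10.67). In whole tissue, fewer cells of a type and less RNA per cell cannot be told apart.

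Of the 42 conjugation enzymes, 27 (64.3%) had a mean log2 of at least 6 over the 32 kidneys, as did 10694 (67.8%) of the 15780 named genes. The 27 were all 3 Gsta genes, Gstk1, Gstp3, Gstz1, Ugt3a2 and all 3 Mgst genes, and in the larger classes 6 of 7 Gstm (all but Gstm6), 3 of 4 Gstt (all but Gstt4), 1 of 2 Gsto (Gsto1), 2 of 7 Ugt2 (Ugt2b34 and Ugt2b38) and 5 of 12 Sult genes (Sult1a1, Sult1b1, Sult1c2, Sult1d1 and Sult5a1). The glutathione transferases were thus mostly above the limit, and the Ugt2 and Sult genes mostly below it. Highest were Ugt3a2 (12.94), Gsta2 (12.78), Sult1d1 (12.38) and Gstm1 (12.21), and lowest was Sult3a1 (3.89). Nearest above the limit were Sult1b1, a thyroid hormone sulfotransferase, at 6.002 and the pi class gene Gstp3 at 6.11. Nearest below it were Sult2b1, which sulfates cholesterol, at 5.74 and Gsto2, an omega class gene that can reduce dehydroascorbate, at 5.49. A value depends on the probes of each gene as well as on its RNA, so the order of different genes is not an order of RNA amounts. Closely related genes within the Gstm, Ugt2b and Sult1 families could share probe signal, which leaves the split between such neighbours uncertain.

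**Figure D1:**
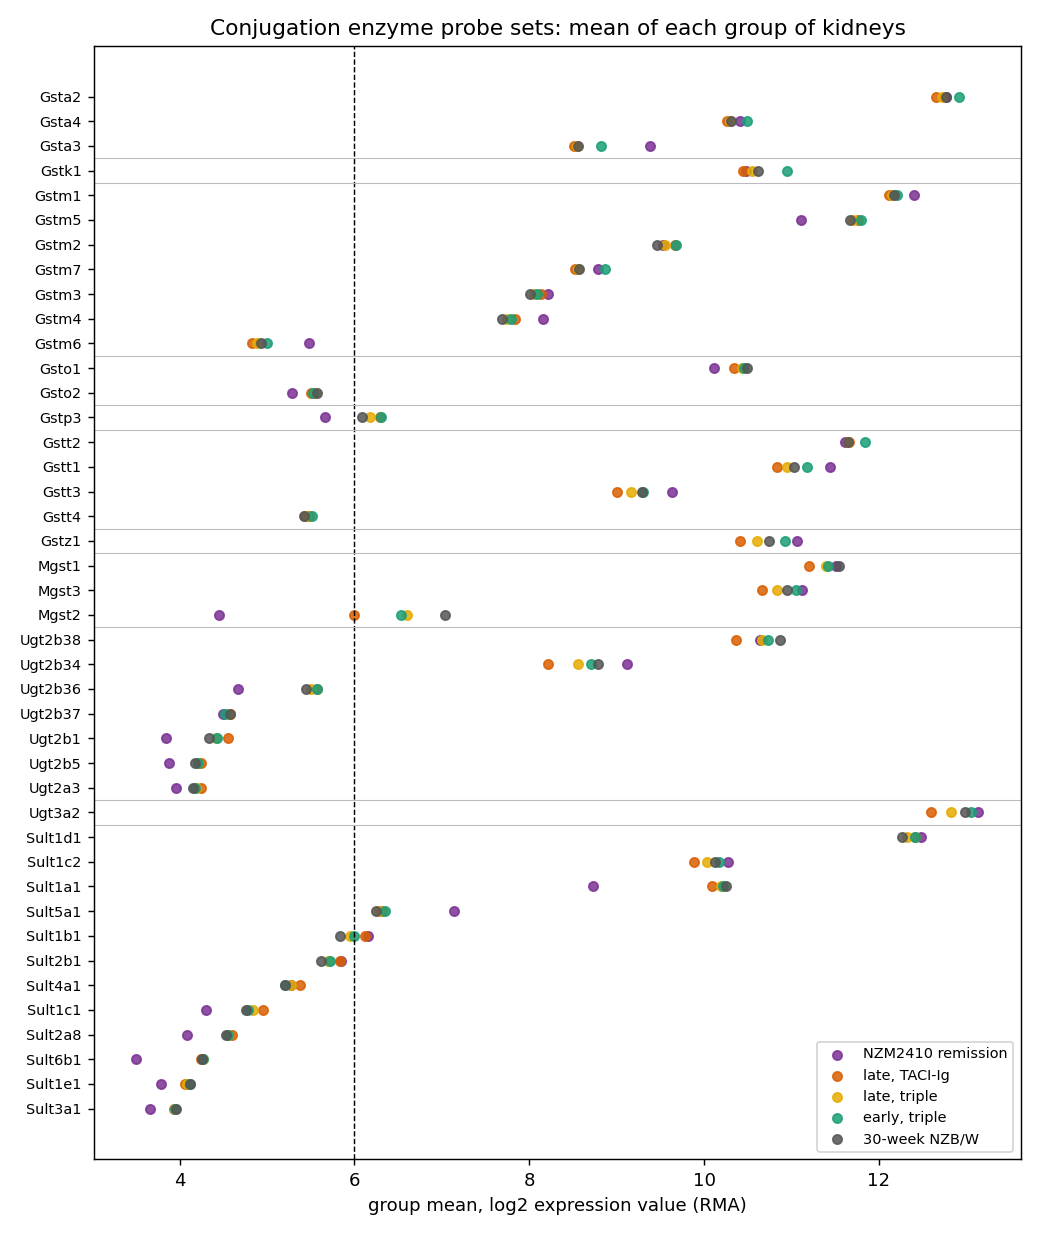
Mean log2 expression value of each of the 42 conjugation enzymes in each of the 5 groups, arranged by class, with a dashed line at 6. The Gst and Mgst genes lay mostly above the line and most Ugt2 and Sult genes below it, and Mgst2 (4.45 in NZM2410 kidneys, 7.03 in 30-week kidneys) had the widest spread of group means.

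The 5 group means of a gene spanned from 0.08 (Ugt2b37) to 2.59 (Mgst2). Among the 27 genes with a mean log2 of at least 6 the span was under 0.30 for Gsta2 (0.27), Gsta4 (0.23), Gstm1 (0.29), Gstm2 (0.21), Gstm3 (0.21), Gstt2 (0.24) and Sult1d1 (0.23). Among all 42 it was widest for Mgst2, Sult1a1 (1.53), Ugt2b36 (0.91), Ugt2b34 (0.90), Sult5a1 (0.90) and Gsta3 (0.86), and it was 0.66 for Gstz1, 0.62 for Gstt3, 0.69 for Gstm5, 0.64 for Gstp3, 0.54 for Ugt3a2, 0.50 for Gstk1 and 0.38 for Gsto1. When the NZM2410 kidneys were set aside, only Mgst2 (1.03), Ugt2b34 (0.57), Gstz1 (0.51), Gstk1 (0.50) and Ugt2b38 (0.50) had group means that spanned at least 0.50 among the 42 genes.

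A class value was formed for each kidney as the mean, over the genes of the class, of the difference between that kidney and the gene's mean over the 32 kidneys. The Mgst class value was -0.49 ± 0.06 in NZM2410 kidneys (SD, n = 6), -0.23 ± 0.18 in TACI-Ig kidneys (n = 5), 0.10 ± 0.20 in late (n = 6) and 0.15 ± 0.30 in early triple therapy kidneys (n = 8) and 0.33 ± 0.32 in 30-week kidneys (n = 7). This order came from Mgst2: without it, an alternative chosen after seeing the data, the mean of Mgst1 and Mgst3 was 0.13 in NZM2410, -0.25 in TACI-Ig, -0.07 in late and 0.05 in early triple therapy and 0.06 in 30-week kidneys, highest in the NZM2410 group. The Sult class value lay between -0.24 and -0.07 in the NZM2410 kidneys, against group means of 0.00 to 0.06 in NZB/W kidneys. Over the 5 brighter Sult genes alone it was -0.16 to 0.15 in NZM2410 kidneys, against -0.16 to 0.23 in NZB/W kidneys, so that the groups overlapped. Over the 27 genes with a mean log2 of at least 6, the value was -0.07 to 0.10 in NZM2410 kidneys, -0.21 to 0.09 in TACI-Ig kidneys, -0.12 to 0.11 in late and -0.08 to 0.22 in early triple therapy kidneys and -0.08 to 0.07 in 30-week kidneys. These spans overlapped for all 5 groups. Within the TACI-Ig group 1 kidney, replicate 2, stood apart at 0.09, with the other 4 between -0.21 and -0.13. It had the highest value of its group in 14 of the 27 genes. Its macrophage and dendritic cell marker score, formed in the same way from 7 genes, was -0.62, against -0.41 to 0.98 in the other TACI-Ig kidneys, and the part of this difference in the enzyme values was not tested.

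**Figure D2:**
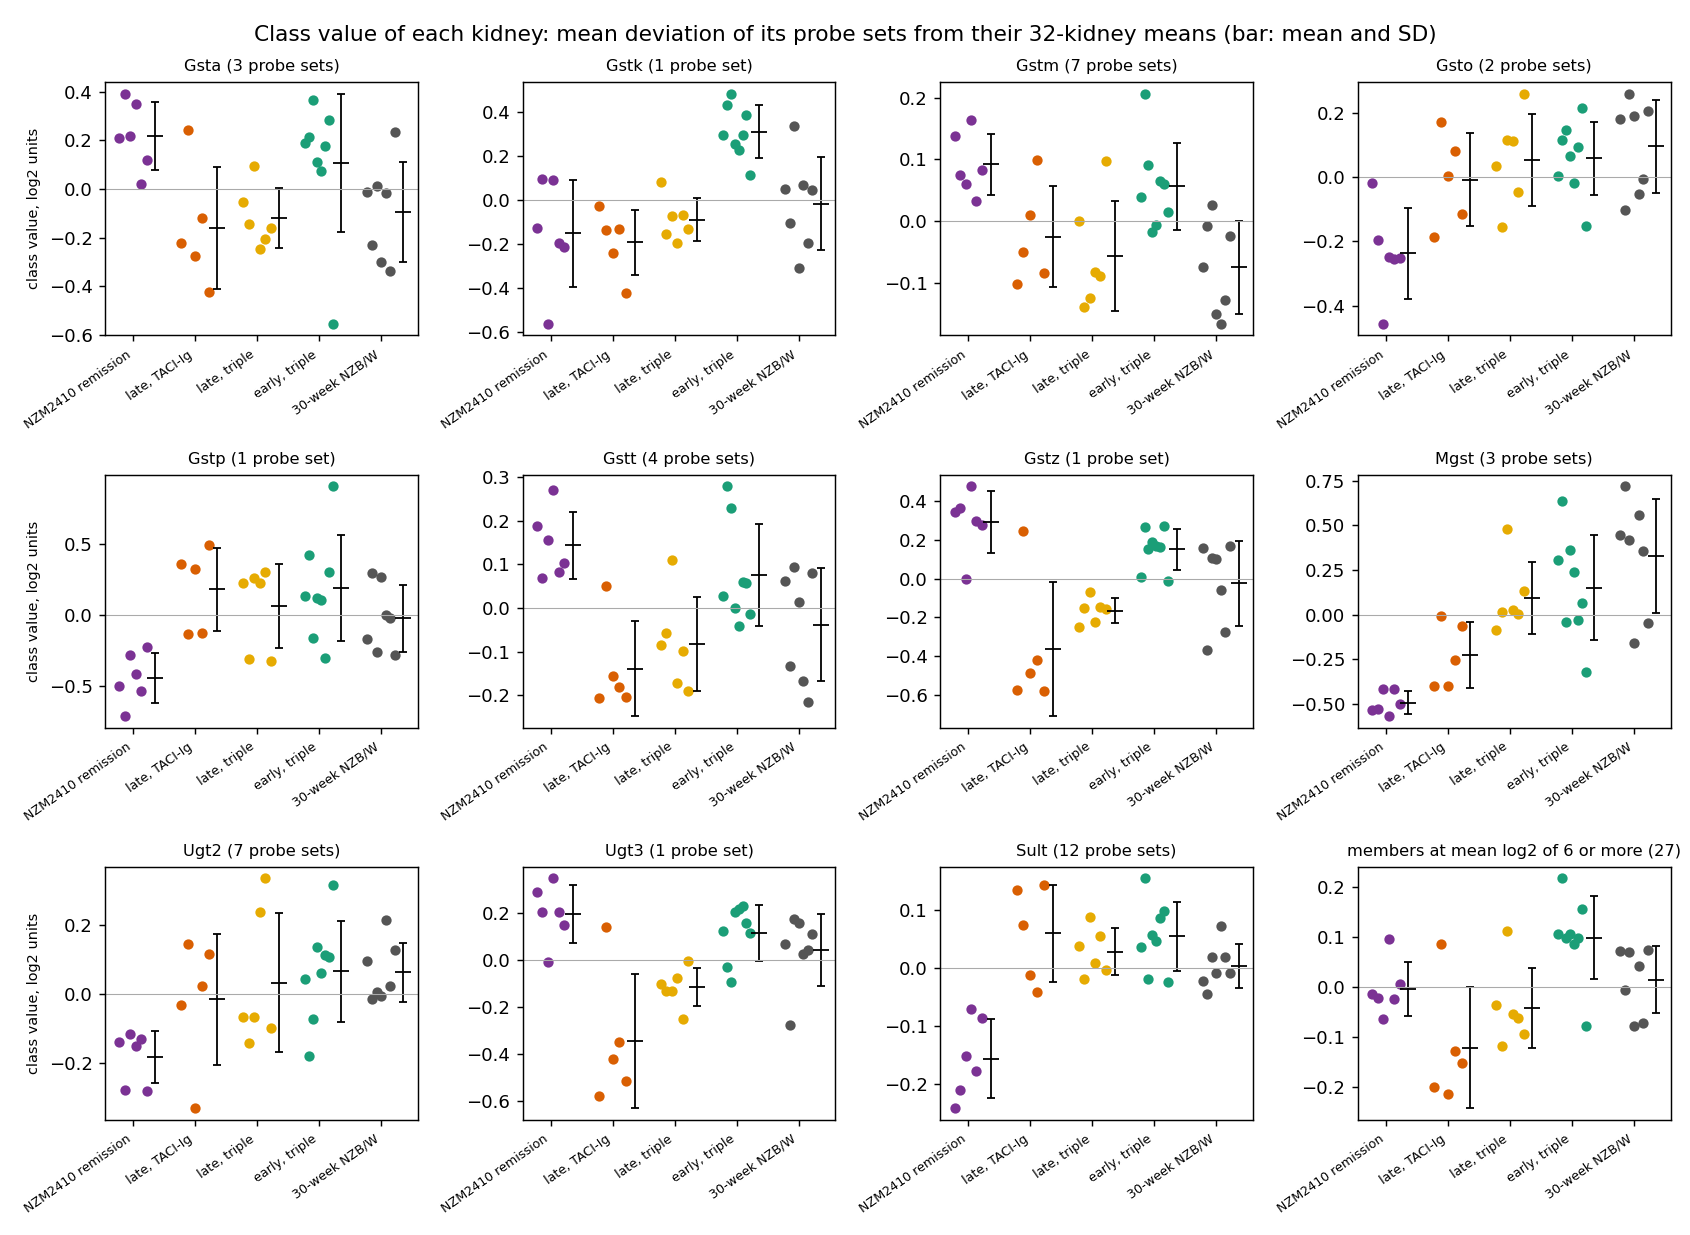
Class value of each kidney (mean log2 difference of the class's genes from their 32-kidney means) for the 11 classes and for the 27 genes with a mean log2 of at least 6, by group, with bars for the mean and SD. The Mgst value was lowest in the NZM2410 kidneys (mean -0.49) because of Mgst2 (0.13 without it), and in the 27 genes 1 TACI-Ig kidney lay at 0.09 above the other 4.

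NZM2410 kidneys were set against NZB/W kidneys in remission after TACI-Ig and against 30-week NZB/W kidneys, to ask how their enzymes compare. Strain cannot be told apart from treatment in either comparison. A gene was called where limma's Benjamini-Hochberg adjusted p over the 15780 genes was below 0.05. In NZM2410 kidneys 29 of the 42 enzymes were called against the 30-week kidneys, 14 higher and 15 lower, and 62.8% of all genes were called. Against the TACI-Ig kidneys 26 were called, 12 higher and 14 lower, with 59.5% of all genes called. The shares of enzymes called were thus near those of all genes, and the results below are about which enzymes differed and by how much. Both comparisons use the same NZM2410 kidneys.

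The direction of the calls went with brightness. Of the 27 enzymes with a mean log2 of at least 6, 12 were higher and 5 lower in NZM2410 than in 30-week kidneys, where 38.1% of all genes of that brightness were higher and 18.8% lower. Of the 15 dimmer enzymes 2 were higher and 10 lower, where 17.7% of all such genes were higher and 57.4% lower. Against TACI-Ig kidneys the brighter enzymes gave 11 higher and 5 lower (all genes 35.9% and 17.4%) and the dimmer ones 1 higher and 9 lower (all genes 13.3% and 59.2%). The wider spread of the NZM2410 arrays moves with this split. When the deposited values were quantile normalized again, which gives every array the same spread, 19 enzymes were called against 30-week kidneys (52.1% of all genes) and 20 against TACI-Ig kidneys (47.8% of all genes). Of the 15 dimmer enzymes 5 were then higher and 2 lower against 30-week kidneys (30.2% and 23.8% of all such genes), and 3 higher and 2 lower against TACI-Ig kidneys (26% and 22.8%). In both comparisons and under both normalizations, 12 of the 42 enzymes (28.6%) were called in 1 direction, as were 31.6% of all genes. Higher in NZM2410 kidneys were Gsta3, Gstm4, Gstm6, Gstt1, Gstt3 and Sult5a1, and lower were Gstm5, Gsto1, Gstp3, Mgst2, Sult1a1 and Ugt2b36.

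Markers of other kidney cell types and of fat also differed in the NZM2410 kidneys in the deposited values. Scores were not formed after renewed normalization. The loop and distal tubule genes are bright (Umod 13.51 in 30-week and 13.99 in NZM2410 kidneys), and bright genes were more often higher than lower in NZM2410 kidneys. What part the wider spread of the NZM2410 arrays had in the scores was not tested. The score of the loop and distal tubule (4 genes) was 0.41 to 0.54 in NZM2410 kidneys, against -0.50 to 0.20 in NZB/W kidneys. The collecting duct score (3 genes) averaged 0.31 in NZM2410, 0.07 in TACI-Ig and -0.25 in 30-week kidneys, and the adipose score (2 genes) averaged -1.82, -0.18 and 0.68 in the same groups. The proximal tubule score (10 genes) was -0.06 to 0.24 in NZM2410 kidneys, against -0.53 to 0.47 in NZB/W kidneys. Its genes went both ways, as Kap averaged 14.58 in NZM2410 and 14.03 in 30-week kidneys, and Slc7a13 6.63 and 7.34. The part of these differences in the enzyme values was not tested.

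**Figure D3:**
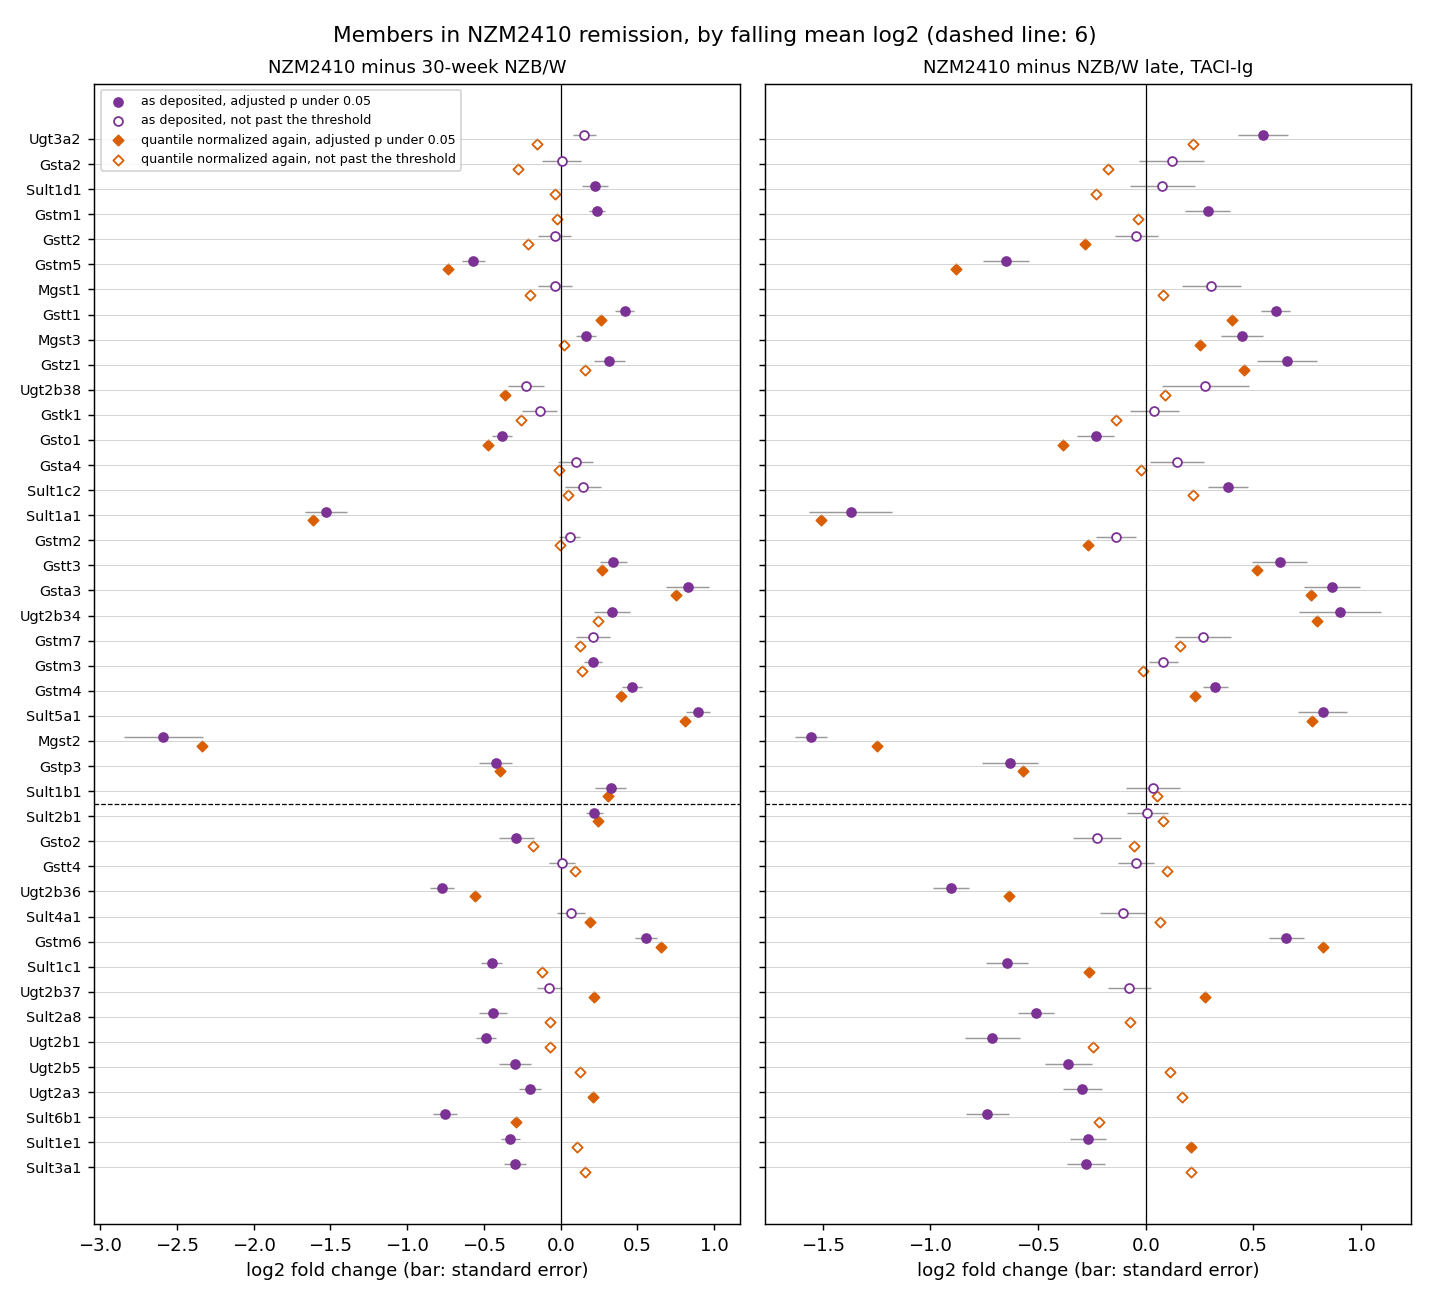
Log2 fold change of each of the 42 enzymes in NZM2410 kidneys against 30-week NZB/W kidneys and against TACI-Ig kidneys, ordered by mean log2, as deposited (circles with SE bars, filled where the adjusted p was below 0.05) and quantile normalized again (diamonds), with a dashed line where the mean log2 passes 6. Mgst2 (-2.59 and -1.55) and Sult1a1 (-1.53 and -1.37) lay farthest below 0, and most genes under a mean log2 of 6 moved upward when normalized again.

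Mgst2, a membrane enzyme that can join glutathione to an epoxide to make a cysteinyl leukotriene, differed most. Its values in NZM2410 kidneys were 4.36 to 4.54 (median 4.44). In the TACI-Ig kidneys they were 5.89, 6.15, 5.80, 6.14 and 6.03, and in the 30-week kidneys they ran from 5.92 to 7.79 (median 7.36). No NZM2410 kidney reached the lowest NZB/W kidney, an early triple therapy kidney at 5.79. Mgst2 was 6.01-fold lower in NZM2410 than in 30-week kidneys (log2 fold change -2.59, SE 0.26, limma adjusted p = 8.91e-07) and 2.94-fold lower than in TACI-Ig kidneys (-1.55, SE 0.08, adjusted p = 2.72e-08). For scale, the Y-linked gene Uty averaged 4.14 in the NZM2410 kidneys, and all kidneys had Xist values of at least 7.81. Whether Mgst2 RNA was measured in NZM2410 kidneys is thus not known, and the folds are ratios of array values.

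Mgst2 was set beside the adrenal cortex markers, scored as the mean difference of 7 genes from their 32-kidney means. The NZM2410 kidneys had low scores (-1.50 to -1.23) with Mgst2 values of 4.36 to 4.54. All 5 TACI-Ig kidneys had scores of -1.33 to -1.11 with Mgst2 values of 5.80 to 6.15. The scores are of deposited values, which were more widely spread in the NZM2410 arrays. In late triple therapy the scores were 0.00 to 0.48, and replicate 8 had an Mgst2 value of 7.39 where the other 5 kidneys had 6.24 to 6.66. The late group's Mgst2 mean differed by -0.0017 from that of the pooled TACI-Ig and 30-week kidneys, so its level is not separate from theirs. Its mean score (0.25) lay between those of TACI-Ig (-1.24) and 30-week kidneys (1.31). In early triple therapy the 4 kidneys with scores of 1.28 to 1.97 had Mgst2 values of 6.71 to 7.20, and the 4 with scores of -1.65 to -0.12 had 5.79 to 6.40. In the 30-week group the 5 kidneys with scores of 2.11 to 2.37 had Mgst2 values of 7.16 to 7.79, and the 2 with scores of -1.33 and -0.76 had 5.92 to 6.13. Mgst2 was thus high in early triple therapy and 30-week kidneys with high adrenal scores, and what part adrenal tissue had in its values was not tested.

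**Figure D4:**
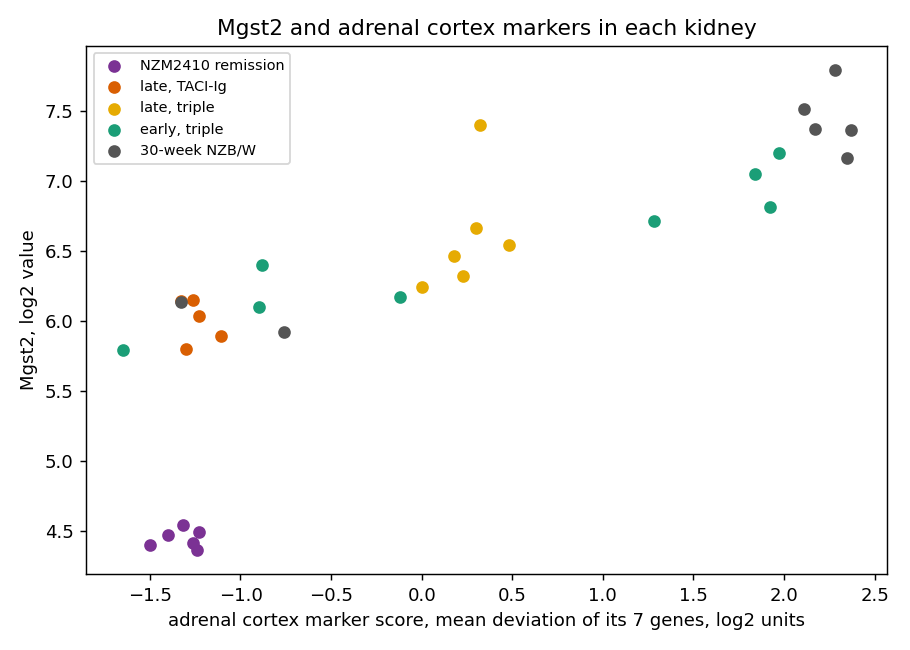
Mgst2 log2 value of each of the 32 kidneys against its adrenal cortex marker score (mean log2 difference of 7 genes from their 32-kidney means), coloured by group. Mgst2 was 4.36 to 4.54 in the NZM2410 kidneys (scores -1.50 to -1.23) and 5.80 to 6.15 in the TACI-Ig kidneys (scores -1.33 to -1.11). The 30-week kidneys with scores above 2 had Mgst2 values above 7.

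The other membrane enzymes differed less. Mgst1, an abundant enzyme of the endoplasmic reticulum and outer mitochondrial membrane, averaged 11.51 ± 0.19 in NZM2410 kidneys, 11.20 ± 0.31 in TACI-Ig kidneys and 11.54 ± 0.25 in 30-week kidneys (SD), and it was called in neither comparison. Mgst3, which also has glutathione peroxidase activity, was 0.17 higher in NZM2410 than in 30-week kidneys (adjusted p = 0.0348) and 0.45 higher than in TACI-Ig kidneys (adjusted p = 0.00145). After renewed normalization only the difference of Mgst3 from TACI-Ig kidneys was called.

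Sult1a1, the main phenol sulfotransferase, was the other gene with a large difference. It had values of 8.28 to 9.06 (median 8.73) in NZM2410 kidneys, against 9.91, 10.88, 9.85, 9.91 and 9.91 in TACI-Ig kidneys and 9.91 to 10.55 (median 10.32) in 30-week kidneys. The NZM2410 kidneys lay below all 26 NZB/W kidneys, of which the lowest, an early triple therapy kidney, had 9.36. The gene was 2.88-fold lower than in 30-week kidneys (log2 fold change -1.53, SE 0.13, limma adjusted p = 2.66e-07) and lower by -1.37 on the log2 scale than in TACI-Ig kidneys (SE 0.19, adjusted p = 5.96e-05). Among NZB/W kidneys Sult1a1 was highest in early triple therapy replicate 2 (11.71), late triple therapy replicate 8 (10.96) and TACI-Ig replicate 2 (10.88).

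Of the other sulfotransferases, Sult5a1, whose substrates are little known, was higher in NZM2410 kidneys in both comparisons. It had 6.77 to 7.38 (median 7.20) there, against 6.67, 6.28, 6.26, 6.13 and 6.24 in TACI-Ig kidneys and 6.11 to 6.33 (median 6.27) in 30-week kidneys. The groups did not overlap, and the differences were 0.90 from 30-week (SE 0.08, adjusted p = 3.04e-07) and 0.82 from TACI-Ig kidneys (SE 0.11, adjusted p = 5.13e-05). Sult1b1 (0.33), Sult2b1 (0.22) and Sult1d1 (0.23), a sulfotransferase of catecholamines that is abundant in mouse kidney, were called higher only against the 30-week kidneys, and Sult1c2 (0.38) only against the TACI-Ig kidneys. The difference between the comparisons was not tested for these genes. After renewed normalization Sult1d1 (-0.04 against 30-week kidneys) and Sult1c2 (0.22 against TACI-Ig kidneys) were not called.

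Several dim sulfotransferases were lower in NZM2410 kidneys in the deposited values, which hold no measure of background. For scale, the Y-linked genes Eif2s3y and Uty, in kidneys that all had Xist values of at least 7.81, averaged 3.26 and 4.14 in NZM2410 kidneys and 3.77 and 4.16 in 30-week kidneys. Sult6b1 (3.51 in NZM2410 and 4.26 in 30-week kidneys), Sult1e1 (3.79 and 4.12) and Sult3a1 (3.66 and 3.96) lay at such values. In NZM2410 kidneys Sult2a8 (4.09) and Sult1c1 (4.31) lay near them. Whether RNA of these genes was measured at all is not known, and the differences are differences of array values. Called in both comparisons were Sult6b1 (-0.75 against 30-week and -0.74 against TACI-Ig kidneys), Sult1c1 (-0.45 and -0.65), Sult2a8 (-0.44 and -0.51), which acts on bile acids in mouse liver, the oestrogen sulfotransferase Sult1e1 (-0.33 and -0.27) and the amine sulfotransferase Sult3a1 (-0.30 and -0.28). After renewed normalization the signs of Sult1e1 (0.10 and 0.21) and Sult3a1 (0.16 and 0.21) turned, with Sult1e1 now called higher than in TACI-Ig kidneys, and Sult2a8 (-0.07 and -0.07) was called in neither. Sult6b1 then stayed called against 30-week kidneys (-0.29) and Sult1c1 against TACI-Ig kidneys (-0.26). Sult4a1, a brain sulfotransferase, averaged 5.28 ± 0.23 in NZM2410 kidneys, 5.38 ± 0.11 in TACI-Ig kidneys and 5.21 ± 0.10 in 30-week kidneys and was not called in either comparison, though it was called higher than in 30-week kidneys after renewed normalization (0.19).

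Among the alpha class, Gsta3 was higher in NZM2410 kidneys. In mice this enzyme detoxifies the epoxide of aflatoxin. It had 9.25 to 9.56 (median 9.34) in NZM2410 kidneys, against 8.59, 9.06, 8.30, 8.22 and 8.41 in TACI-Ig kidneys and 7.86 to 8.94 (median 8.63) in 30-week kidneys. The NZM2410 kidneys lay above every NZB/W kidney, and the log2 fold changes were 0.83 (SE 0.14, limma adjusted p = 0.000108) and 0.86 (SE 0.13, adjusted p = 9.00e-05). The other alpha class genes did not follow. Gsta2 averaged 12.77 ± 0.31 in NZM2410, 12.65 ± 0.26 in TACI-Ig and 12.77 ± 0.20 in 30-week kidneys, and Gsta4, which acts on aldehydes from lipid peroxidation, 10.41 ± 0.09, 10.27 ± 0.33 and 10.31 ± 0.30 in the same groups. Neither was called, and that the 3 alpha class genes differ from each other in their response was not tested.

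The 7 mu class genes lie next to each other on mouse chromosome 3 (order in RefSeq: Gstm5, Gstm7, Gstm6, Gstm3, Gstm2, Gstm1, Gstm4), and they moved in both directions. Gstm5, at one end of the row, had 10.86 to 11.31 (median 11.12) in NZM2410 kidneys, against 12.00, 11.58, 11.45, 11.80 and 11.95 in TACI-Ig kidneys and 11.57 to 11.92 (median 11.66) in 30-week kidneys. It was lower by -0.57 (SE 0.07, adjusted p = 8.61e-06) than in 30-week and by -0.65 (SE 0.11, adjusted p = 0.00021) than in TACI-Ig kidneys, with no overlap. Gstm6 (0.56 against 30-week, 0.65 against TACI-Ig kidneys) and Gstm4 (0.46 and 0.32) were higher, and their NZM2410 values, 5.37 to 5.62 for Gstm6 and 8.04 to 8.25 for Gstm4, lay above all NZB/W kidneys. Gstm1 was called higher (0.24 and 0.29), but its sign turned after renewed normalization (-0.03 and -0.04), and Gstm3 was called only against 30-week kidneys (0.21, and 0.14 with no call after renewed normalization). Gstm2 (0.06 and -0.14) and Gstm7 (0.21 and 0.27) were called in neither comparison, though Gstm2 was called lower than in TACI-Ig kidneys after renewed normalization (-0.27).

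The theta class genes lie together on chromosome 10, and 2 of the 4 were higher. Gstt1, which acts on small halogenated molecules, had 11.30 to 11.55 (median 11.45) in NZM2410 kidneys, against 10.81, 11.02, 10.74, 10.78 and 10.85 in TACI-Ig kidneys and 10.85 to 11.17 (median 11.06) in 30-week kidneys. The differences were 0.42 from 30-week (SE 0.06, adjusted p = 3.70e-05) and 0.60 from TACI-Ig kidneys (SE 0.07, adjusted p = 1.10e-05). Gstt3 was higher by 0.34 and 0.62 (adjusted p = 0.00334 and 0.000935). Gstt2 (-0.04 and -0.04) and Gstt4 (0.01 and -0.05) were not called in the deposited values, and Gstt2 was called lower than in TACI-Ig kidneys after renewed normalization (-0.28).

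The zeta, kappa, pi and omega classes held few genes. Gstz1, the maleylacetoacetate isomerase of tyrosine breakdown, averaged 11.06 ± 0.16 in NZM2410 kidneys, 10.41 ± 0.35 in TACI-Ig kidneys and 10.75 ± 0.22 in 30-week kidneys, a difference of 0.66 from TACI-Ig (adjusted p = 0.00128) and 0.32 from 30-week kidneys (adjusted p = 0.0126), of which the second was not called after renewed normalization (0.16). Gstk1 averaged 10.48 ± 0.24, 10.44 ± 0.15 and 10.62 ± 0.21 in the same groups and was not called. Lower in NZM2410 kidneys were the pi class gene Gstp3 (-0.42 against 30-week, -0.63 against TACI-Ig kidneys) and Gsto1, a glutathione-dependent thiol transferase (-0.38 and -0.23). Gsto2 (-0.29 and -0.23) was called only against 30-week kidneys and lost that call after renewed normalization.

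The glucuronosyltransferases differed from gene to gene. The 7 Ugt2 genes lie together on chromosome 5 (Ugt2b34, Ugt2b1, Ugt2b36, Ugt2b5, Ugt2b37, Ugt2a3 and Ugt2b38 in order). Ugt2b34, 1 of the 2 bright ones, had 8.94 to 9.27 (median 9.15) in NZM2410 kidneys, against 7.88, 9.11, 7.81, 7.99 and 8.30 in TACI-Ig kidneys and 8.30 to 9.20 (median 8.77) in 30-week kidneys. It was higher by 0.90 (SE 0.19, adjusted p = 0.00124) than in TACI-Ig and by 0.34 (SE 0.12, adjusted p = 0.0222) than in 30-week kidneys, and the values overlapped in both comparisons. The difference of Ugt2b34 from 30-week kidneys was not called after renewed normalization (0.25). Ugt2b36 was lower, at 4.60 to 4.83 in NZM2410 kidneys, against 5.31 to 5.79 in TACI-Ig and 5.17 to 5.78 in 30-week kidneys (log2 fold changes -0.90 and -0.78, adjusted p = 2.73e-06 and 9.64e-07). Ugt2b1 (-0.49 against 30-week, -0.71 against TACI-Ig kidneys), Ugt2b5 (-0.30 and -0.36) and Ugt2a3 (-0.20 and -0.29) were also called lower. Ugt2b1 (3.85 in NZM2410 and 4.33 in 30-week kidneys), Ugt2b5 (3.88 and 4.18) and Ugt2a3 (3.95 and 4.15) also lay near the values of the Y-linked genes. After renewed normalization Ugt2b5 (0.13 and 0.11) and Ugt2a3 (0.21 and 0.17) turned, Ugt2a3 being called higher than in 30-week kidneys, and Ugt2b1 (-0.07 and -0.24) was not called. Ugt2b38 (-0.23 and 0.28) and Ugt2b37 (-0.07 and -0.08) were not called in the deposited values, whereas after renewed normalization Ugt2b37 was called higher in both comparisons (0.22 and 0.28) and Ugt2b38 lower than in 30-week kidneys (-0.36). Ugt3a2, whose human counterpart uses sugar donors other than UDP-glucuronate, averaged 13.14 ± 0.12 in NZM2410, 12.60 ± 0.29 in TACI-Ig and 12.98 ± 0.15 in 30-week kidneys. It was called only against TACI-Ig kidneys (0.54, adjusted p = 0.00141) and lost that call after renewed normalization (0.22).

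Gene starts are shown for Mgst2 and Sult1a1, which differed most between NZM2410 and NZB/W kidneys. Gsta3 and Gstm5, which differed in opposite directions, are shown with them. The reason is that enzymes of conjugation are known targets of NRF2, the aryl hydrocarbon receptor and HNF1. Below are the 250 bases before the RefSeq start of these 4 genes in the mouse reference assembly GRCm38.p6, 5′ to 3′ on the strand of the gene. Capitals mark matches on either strand to TGACNNNGC (the antioxidant response element of NRF2), GCGTG (the element of the aryl hydrocarbon receptor), CCAAT and GTTAAT (a motif of HNF1). The NZM2410 and NZB/W sequences were not measured.
Mgst2 (chr3:51660929-51661178, plus strand): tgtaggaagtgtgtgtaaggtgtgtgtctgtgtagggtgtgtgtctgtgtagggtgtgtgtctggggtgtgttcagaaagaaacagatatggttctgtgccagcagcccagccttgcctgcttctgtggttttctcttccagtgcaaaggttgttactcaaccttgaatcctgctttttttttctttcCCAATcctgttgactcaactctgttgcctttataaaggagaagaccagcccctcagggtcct
Sult1a1 (chr7:126676419-126676668, minus strand): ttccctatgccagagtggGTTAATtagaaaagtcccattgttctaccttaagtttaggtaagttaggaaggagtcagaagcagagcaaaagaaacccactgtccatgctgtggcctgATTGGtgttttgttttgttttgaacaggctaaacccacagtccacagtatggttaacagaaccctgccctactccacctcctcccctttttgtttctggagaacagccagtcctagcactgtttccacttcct
Gsta3 (chr1:21240335-21240584, plus strand): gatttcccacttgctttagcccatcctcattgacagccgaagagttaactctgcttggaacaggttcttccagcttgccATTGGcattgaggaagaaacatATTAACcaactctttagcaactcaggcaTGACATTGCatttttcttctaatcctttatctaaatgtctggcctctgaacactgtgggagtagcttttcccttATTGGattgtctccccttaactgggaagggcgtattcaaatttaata
Gstm5 (chr3:107895604-107895853, plus strand): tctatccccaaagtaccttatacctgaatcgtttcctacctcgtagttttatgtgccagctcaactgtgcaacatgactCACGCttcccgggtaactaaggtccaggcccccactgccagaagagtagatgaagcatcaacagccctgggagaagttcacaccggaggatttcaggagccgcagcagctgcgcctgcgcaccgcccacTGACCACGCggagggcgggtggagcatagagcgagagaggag
Gsta3, which was higher in NZM2410 kidneys, and Gstm5, which was lower, both held TGACNNNGC, and in Gstm5 that match overlaps 1 of the 2 matches to GCGTG. Windows were found for 38 of the 42 enzymes (50 windows, as some genes have several starts), and none is shown for Gsta4, Gstt2, Ugt3a2 and Sult4a1. TGACNNNGC stood in 8.0% of the enzymes' windows and in 10.2% of all 32851 windows of this length, GCGTG in 18.0% and 28.2%, GTTAAT in 8.0% and 6.4%, and CCAAT in 50.0% and 33.8%. A match describes letters in a window and does not show binding.

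Late remission was set against early remission after the same triple therapy. The late triple therapy mean of each of the 42 enzymes lay within 0.0122 of the mean of the pooled TACI-Ig and 30-week kidneys, though the SD of an enzyme within the late group was 0.06 to 0.77. The level of the late group was thus not separate from those kidneys in the deposited values, and the comparison below describes these values and does not measure time after treatment. Of the 15780 genes 11 were called (0.0697%), all lower in late remission, and 2 of them were conjugation enzymes, Gstk1 and Gstz1. Gstk1, the kappa class enzyme of mitochondria and peroxisomes, had 10.44 to 10.72 (median 10.53) in late remission, against 10.75 to 11.12 (median 10.93) in early remission. It was 1.32-fold lower (log2 fold change -0.40, SE 0.06, limma adjusted p = 0.0301). Gstz1 had 10.52 to 10.70 (median 10.62) in late remission, against 10.76 to 11.04 (median 10.94) in early remission (log2 fold change -0.32, SE 0.05, limma adjusted p = 0.0454). The late and early kidneys did not overlap in either gene. Of the 42 enzymes 35 had a lower mean in late remission, as did 8651 of the 15780 genes. The median log2 fold change was -0.07, against -0.01 over all genes. After renewed normalization 24 enzymes and 8146 of all genes had a lower mean, with medians of -0.041 and -0.003. At an unadjusted limma p below 0.05, 6 enzymes were lower and 0 higher, against 601 genes lower and 237 higher among all (5.31%). Besides Gstk1 and Gstz1, the other 4 were Gstm7 (-0.32, adjusted p = 0.447), Ugt3a2 (-0.23, adjusted p = 0.296), Gsta3 (-0.28, adjusted p = 0.802) and Gstt1 (-0.23, adjusted p = 0.733). After renewed normalization 4 enzymes were lower and 0 higher at that limit, against 351 and 338 of all genes.

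Both calls were near the threshold. Neither enzyme was called in a joint fit of all groups, after renewed quantile normalization or with a replicate block, and leaving out a kidney gave 0 to 3 called enzymes. Both were called with median centring, among brighter genes alone and with array weights.

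The sequences before the starts of Gstk1 and Gstz1 are shown because these enzymes were called in the comparison of late with early remission. Capitals again mark matches to the 4 motifs, and Gstz1 has starts at 2 places.
Gstk1 (chr6:42245685-42245934, plus strand): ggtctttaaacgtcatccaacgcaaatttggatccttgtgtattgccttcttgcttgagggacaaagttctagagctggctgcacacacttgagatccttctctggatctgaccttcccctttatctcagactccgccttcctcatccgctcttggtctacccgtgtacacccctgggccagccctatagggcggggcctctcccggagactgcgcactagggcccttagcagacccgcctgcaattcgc
Gstz1 (chr12:87146915-87147164, plus strand): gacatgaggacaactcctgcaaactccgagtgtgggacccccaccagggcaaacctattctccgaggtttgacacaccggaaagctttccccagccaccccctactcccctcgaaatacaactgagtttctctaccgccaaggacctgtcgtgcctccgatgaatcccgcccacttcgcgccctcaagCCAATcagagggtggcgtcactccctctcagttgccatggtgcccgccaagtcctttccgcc
Gstz1 (chr12:87157353-87157602, plus strand): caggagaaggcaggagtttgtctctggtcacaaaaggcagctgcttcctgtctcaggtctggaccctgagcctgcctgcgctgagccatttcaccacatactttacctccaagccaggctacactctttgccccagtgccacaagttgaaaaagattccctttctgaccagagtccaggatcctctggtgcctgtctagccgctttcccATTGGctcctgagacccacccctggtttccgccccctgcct
No match to the 4 motifs stood in the Gstk1 window, and each Gstz1 window held a CCAAT.

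**Figure D5:**
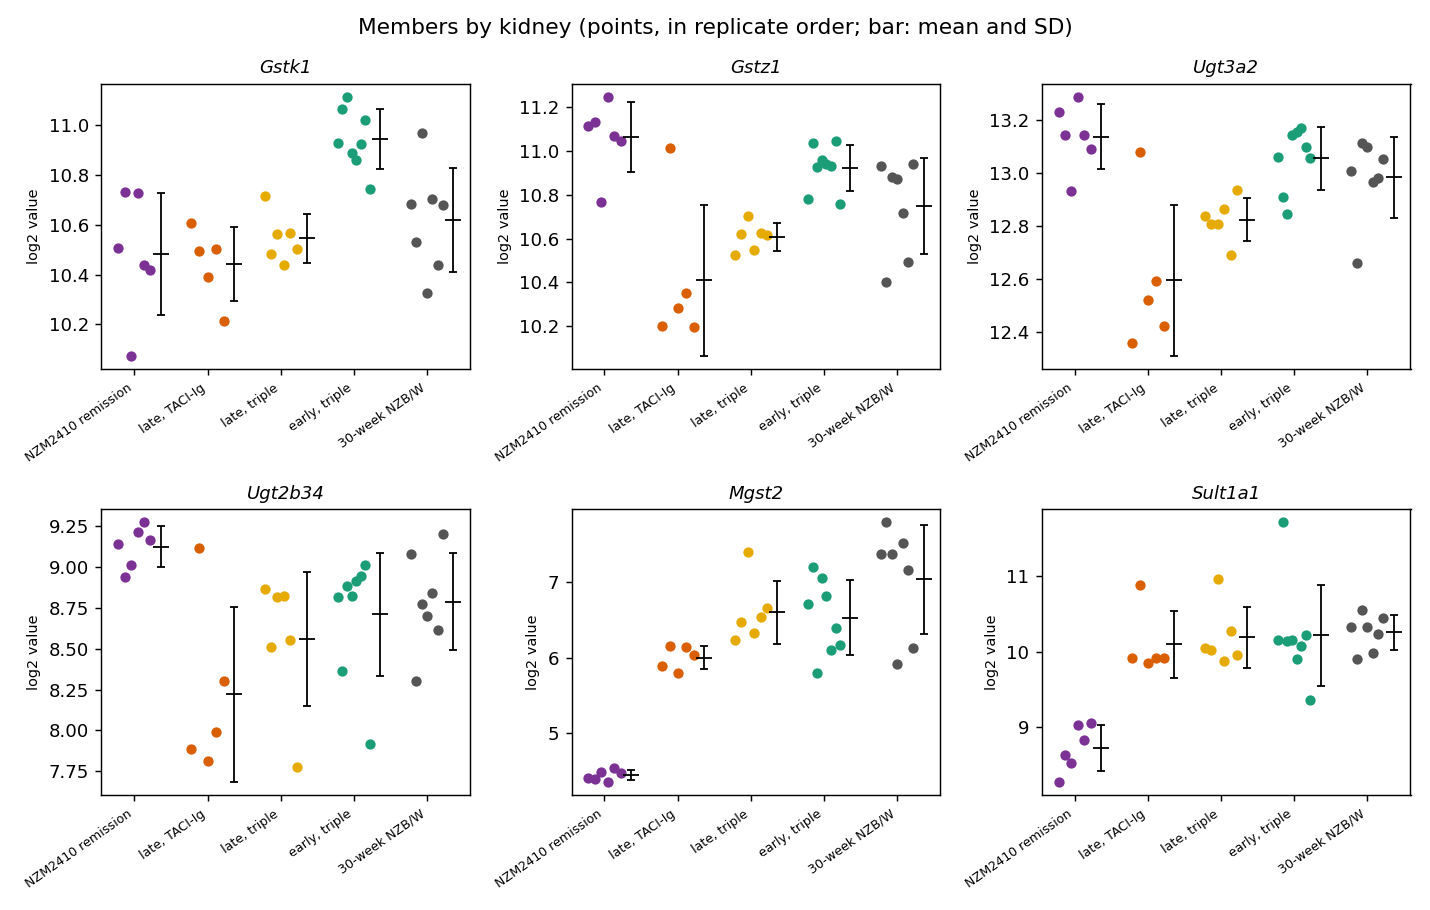
Log2 value of Gstk1, Gstz1, Ugt3a2, Ugt2b34, Mgst2 and Sult1a1 in each kidney, by group, with bars for the mean and SD. The late triple therapy kidneys (Gstk1 10.44 to 10.72) lay below the early ones (10.75 to 11.12), and TACI-Ig replicate 2 lay above the other 4 TACI-Ig kidneys in Gstz1 (11.02), Ugt3a2 (13.08), Ugt2b34 (9.11) and Sult1a1 (10.88).

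Early remission after triple therapy was set against the untreated 30-week kidneys. No gene was called (0% of 15780), and at an unadjusted p below 0.05 limma gave 6 enzymes higher and 0 lower in early remission, against 855 genes higher and 531 lower among all (8.78%). The 6 were Gstk1 (0.33), Gstm7 (0.30), Gstm2 (0.21), Gstz1 (0.18), Sult1b1 (0.17) and Gstm5 (0.13), and their adjusted p-values ran upward from 0.239 for Gstk1. Gstk1 averaged 10.95 ± 0.12 in early remission and 10.62 ± 0.21 in 30-week kidneys (SD), and 1 of the 7 30-week kidneys (10.97) lay within the span of the early ones. The largest mean difference was in Mgst2, at 6.53 ± 0.49 in early remission and 7.03 ± 0.72 in 30-week kidneys (-0.50, adjusted p = 0.641), with the adrenal scores given above. Of the 42 enzymes, 33 had a higher mean in early remission, as did 9407 of the 15780 genes. The median log2 fold change was 0.08, against 0.02 over all genes. After renewed normalization 25 enzymes and 8422 of all genes had a higher mean, with medians of 0.035 and 0.006. At an unadjusted limma p below 0.05, 3 enzymes were then higher and 0 lower, against 669 and 616 of all genes.

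TACI-Ig kidneys were set against 30-week kidneys and against early triple therapy kidneys, to ask whether a second route to remission leaves the same enzyme levels. Both comparisons use the same TACI-Ig kidneys. With all 5 TACI-Ig kidneys no gene was called in either comparison (0% and 0% of 15780). At an unadjusted p below 0.05, 4 enzymes were higher and 8 lower than in 30-week kidneys (1682 and 1526 of all genes), and 1 was higher and 10 were lower than in early triple therapy kidneys (992 and 1344 of all genes). Lower than in 30-week kidneys were Mgst2 (-1.03), Ugt2b34 (-0.57), Ugt2b38 (-0.50), Ugt3a2 (-0.39), Mgst1 (-0.34), Gstz1 (-0.34), Mgst3 (-0.28) and Gstt1 (-0.19), and higher were Sult1b1 (0.29), Sult2b1 (0.21), Gstm2 (0.20) and Sult4a1 (0.17). The adjusted p was at least 0.203 for each. Against early triple therapy kidneys the smallest adjusted p, 0.131, was that of Gstk1 (-0.50), Gstz1 (-0.51) and Ugt3a2 (-0.46). Gstk1 had 10.61, 10.50, 10.39, 10.50 and 10.21 in TACI-Ig kidneys, all below the lowest early triple therapy kidney (10.75).

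The calls changed when TACI-Ig replicate 2 was left out. In this kidney Gstz1 was 11.02 where the other 4 had 10.19 to 10.35. Ugt3a2 was 13.08 there, against 12.36, 12.52, 12.59 and 12.42 in the others, and Ugt2b34 was 9.11, against 7.88, 7.81, 7.99 and 8.30. Its values were thus at or above the 30-week medians of these genes (Gstz1 10.87, Ugt3a2 13.01, Ugt2b34 8.77), while the other 4 TACI-Ig kidneys were below the lowest 30-week kidney in all 3 genes or reached it in 1 kidney (Ugt2b34 8.30).

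Without that kidney, which was singled out after its values were seen, 6 enzymes were called against 30-week kidneys, where 8.3% of all genes were called. Lower in the 4 remaining TACI-Ig kidneys were Ugt2b34 (-0.79, limma adjusted p = 0.0235), Ugt2b38 (-0.65, 0.0291), Ugt3a2 (-0.51, 0.0235), Gstz1 (-0.49, 0.0321) and Mgst3 (-0.37, 0.0311), and higher was Sult2b1 (0.28, 0.0405). Against early triple therapy kidneys 7 enzymes were then called, with 6.82% of all genes. Lower were Ugt2b34 (-0.71, limma adjusted p = 0.0312), Gstz1 (-0.67, 0.000374), Ugt3a2 (-0.58, 0.0014), Gstk1 (-0.52, 0.00575), Mgst3 (-0.48, 0.0233) and Gstt1 (-0.38, 0.0192), and higher was Sult4a1 (0.21, 0.041). The shares were 6 of 42 and 7 of 42 enzymes. The proximal tubule marker score was -0.49, -0.31, -0.02 and -0.53 in these 4 kidneys and 0.02 in replicate 2, against -0.21 to 0.47 in early triple therapy and -0.38 to 0.15 in 30-week kidneys, and its part in the enzyme values was not tested.

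Enzymes of the Ugt2 family also differed between kidneys of 1 group. Ugt2b38 had 9.47 to 12.06 in early triple therapy kidneys, against 10.73 to 11.13 in 30-week kidneys. Ugt2b37, a dim gene, was 5.70 in early triple therapy replicate 8 and 5.68 and 5.42 in late triple therapy replicates 9 and 11, where no 30-week kidney passed 4.77. Ugt2b1 (5.57), Ugt2b36 (5.97) and Ugt2b5 (4.82) were all highest of their group in late triple therapy replicate 10. That kidney had a hepatocyte marker score of 0.91 (5 genes), where the other 5 late kidneys had -0.49 to 0.32. The score was higher in 30-week replicate 5 (1.32) and early triple therapy replicate 1 (1.04). The highest values in those 2 groups were 4.46 and 4.64 for Ugt2b1, 5.78 and 5.86 for Ugt2b36, and 4.61 and 4.385 for Ugt2b5. The part of the hepatocyte score in these values was not tested.

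The genes that supply, trim, export and control the conjugates were read from the same fits, as 46 measured genes in 5 lists: glutathione synthesis and mercapturate formation (15), UDP-glucuronate (4), sulfate supply and removal (13), export (5) and regulators (9). In NZM2410 kidneys 18 of the 46 were higher and 9 lower than in 30-week kidneys (58.7% called, against 62.8% of all genes), and 17 were higher and 7 lower than in TACI-Ig kidneys (52.2%, against 59.5% of all genes). Of the 42 with a mean log2 of at least 6, 42.9% were higher and 14.3% lower than in 30-week kidneys, near the 38.1% and 18.8% of all genes of that brightness. After renewed normalization 18 (39.1%) and 17 (37.0%) of the 46 were called, against 52.1% and 47.8% of all genes, and their median log2 fold change was 0.01 against 30-week and 0.07 against TACI-Ig kidneys, where it was 0.01 and 0.01 over all genes. Nat8, the N-acetyltransferase of the last step to a mercapturate, was lower (9.71 ± 0.48 in NZM2410 and 10.87 ± 0.49 in 30-week kidneys, -1.16, limma adjusted p = 0.000592), and so was Chac1, which breaks down glutathione (-1.03, limma adjusted p = 1.39e-06). Both were also lower than in TACI-Ig kidneys (Nat8 -1.25, Chac1 -1.08). Nr1i3, a nuclear receptor of foreign compounds, was lower than in 30-week kidneys (-0.87, limma adjusted p = 6.60e-07). Ppara, a nuclear receptor of fatty acids, was higher than in TACI-Ig kidneys (1.29, limma adjusted p = 0.00072).

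The calls against 30-week kidneys in the deposited values are given by list, where 31.5% of all genes were called higher and 31.3% lower. The lists are short, and their counts name genes and do not set a list apart from all genes. After renewed normalization 18 of the 46 were called, against 52.1% of all genes. Of the 9 regulators 5 were higher (Ahr, Arnt, Keap1, Nfe2l2 and Ppara) and 1, Nr1i3, was lower. Of the 15 glutathione genes 5 were higher, among them the synthesis enzymes Gclc and Gss, and 5 lower, among them the cystine transporter Slc7a11 and the brush border peptidase Anpep. Slc7a11 averaged 4.20 in 30-week kidneys, near the Y-linked gene Uty (4.16), so whether its RNA was measured is not known. Of the 4 pathway genes with a mean log2 under 6, 3 were called lower as deposited and 1 after renewed normalization. Of the 13 sulfate genes 4 were higher, among them Papss1, which makes PAPS, and the sulfate transporter Slc13a1, and 2, the protein tyrosine sulfotransferases Tpst1 and Tpst2, lower. Of the 5 exporters Abcc1 and Abcg2 were higher and Abcc2 was lower, and of the 4 UDP-glucuronate genes Ugdh and Gusb were higher.

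Within NZB/W kidneys none of the 46 genes was called in the 4 comparisons with all kidneys. The counts of the 46 at an unadjusted limma p below 0.05 follow, with those of all 15780 genes in brackets. In early remission 3 were higher and 4 lower than in 30-week kidneys (855 and 531). In TACI-Ig kidneys 4 were higher and 15 lower than in 30-week kidneys (1682 and 1526). Against early triple therapy kidneys 1 was higher and 8 were lower in TACI-Ig kidneys (992 and 1344). In late remission 0 were higher and 5 lower than in early remission (237 and 601). TACI-Ig replicate 2 was singled out after its values were seen, and without it 8.3% of all genes were called against 30-week and 6.82% against early triple therapy kidneys. The genes named next were called in both comparisons, and others of the 46 in only 1 of them. The sulfate transporter Slc13a1 was lower than in 30-week (-0.59, limma adjusted p = 0.0235) and early triple therapy kidneys (-0.44, 0.0318). So were Papss2, which makes PAPS (-0.80, 0.0466 and -0.88, 0.00633), and Lap3, an aminopeptidase (-0.49, 0.0335 and -0.49, 0.0197). Bpnt2, a phosphatase that clears the nucleotide left over from sulfation, was higher (0.83, 0.0349 and 0.71, 0.0132).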

How the data were processed

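The authors deposited log2 expression values of whole kidney RNA on Affymetrix arrays, made with RMA per the submitters' processing notes. The paper's methods state joint normalization and batch correction. Batches and a software version are not given in the sources used here. Of 16539 probe sets 15780 were named and tested, and 64 controls and 695 unnamed probe sets were left out. All 42 enzymes were matched in RefSeq by Entrez ID.

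Groups came from the labels. Each of 6 comparisons was fitted on its own kidneys with limma 3.58.1 in R 4.3.3. Nothing shows that every kidney came from a separate mouse (1 early triple therapy and 1 30-week kidney carry the same mouse code), so p-values measure the spread between kidneys. The number of arrays sets the precision. Scores, motifs and figures used Python 3.11.15 with numpy 2.4.6, pandas 2.3.3 and matplotlib 3.10.9. Enzymes and gene lists were chosen with earlier results of these data known. Named genes are enzymes called in any comparison, the highest and most variable of each class, the nearest 2 on each side of a mean log2 of 6, and the 3 largest called differences among other pathway genes in each comparison; others were named after their values were seen.

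Alternatives were a joint fit, renewed quantile normalization, median centring, brighter genes alone, array weights, an intensity trend with robust prior, the study's filter (adjusted p at most 0.001, fold at least 1.4 or at most 0.7), a replicate block, sample-name letters as covariate, BG mice alone, omission of both kidneys with the shared code, and omission of each kidney by itself. TACI-Ig replicate 2 omitted together with renewed normalization, the split by brightness, and the Mgst value without Mgst2, were added after the data were seen.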

Additional observations from a re-analysis of the deposited data

Results flagged for a closer look

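Each enzyme in each group, and the mean of the 27 brighter enzymes, was examined with Dixon's test at the 95% level, 215 tests in all. A single kidney stood apart in 28 of them. About 1 in 20 separate tests would do so by chance, but these tests share kidneys and related genes. An excess over chance can therefore not be read from the count. In NZM2410 remission these were Sult4a1 in replicate 3 (5.72, others 5.07 to 5.28), Ugt2b1 in replicate 3 (4.01, others 3.77 to 3.85) and Ugt2b36 in replicate 1 (4.83, others 4.60 to 4.67).

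In TACI-Ig kidneys replicate 2 was high in Gstz1 (11.02), Sult1a1 (10.88, others 9.85 to 9.91) and the mean of the brighter enzymes (0.09), and replicate 1 was high in Sult5a1 (6.67, others 6.13 to 6.28). In late triple therapy replicate 8 was high in Mgst2 (7.39), Sult1a1 (10.96, others 9.88 to 10.28) and the mean of the brighter enzymes (0.11, others -0.12 to -0.04) and low in Sult6b1 (3.98, others 4.28 to 4.36). Replicate 10 was high in Ugt2b1 (5.57, others 4.16 to 4.31), Ugt2b36 (5.97, others 5.33 to 5.54) and Ugt2b5 (4.82, others 3.92 to 4.22), and replicate 11 was low in Ugt2b34 (7.78, others 8.51 to 8.87).

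In early triple therapy replicate 2 was high in Gstt2 (12.47, others 11.56 to 11.91), Sult1a1 (11.71, others 9.36 to 10.22) and Sult1d1 (12.73, others 12.26 to 12.47) and low in Sult1c2 (9.14, others 9.98 to 10.62). Replicate 8 was low in Gsta2 (12.31, others 12.86 to 13.14) and the mean of the brighter enzymes (-0.08, others 0.09 to 0.22) and high in Ugt2b37 (5.70, others 4.26 to 4.58). Replicate 3 was low in Sult1e1 (3.89, others 4.08 to 4.23) and replicate 4 in Sult5a1 (6.07, others 6.30 to 6.48). In 30-week kidneys replicate 2 was high in Gstm5 (11.92, others 11.57 to 11.68) and low in Gsto1 (10.34, others 10.47 to 10.56) and Ugt3a2 (12.66, others 12.97 to 13.12), and replicate 6 was high in Sult1e1 (4.26, others 4.02 to 4.12).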

How the results depend on the processing

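Array number limits all counts. Early remission against 30-week kidneys gave 0 called enzymes except with array weights (1), and 0 when any kidney was left out. TACI-Ig against 30-week kidneys gave 0 to 6 when a kidney was left out (6 without TACI-Ig replicate 2) and 7 without that kidney after renewed quantile normalization. TACI-Ig against early triple therapy kidneys gave 5 in the joint fit, 3 with array weights, 4 without TACI-Ig replicate 2 after renewed normalization, and 0 to 7 when a kidney was left out (7 without replicate 2). Late against early triple therapy gave 0 in the joint fit, after renewed normalization, under the study's filter, with the replicate block and with name letters as covariate, 1 with an intensity trend and robust prior, 2 with median centring or among brighter genes alone, 3 with array weights, and 0 to 3 when a kidney was left out (0 without late replicate 6, 7, 9, 10 or 11 or early replicate 3, 4, 5, 6 or 7, and 3 without early replicate 8). With name letters as covariate, Gsta3 (0.28) and Gstt1 (0.13) turned upward in late remission. NZM2410 against 30-week kidneys gave 19 after renewed normalization, 17 among genes with a mean log2 of at least 6, 8 under the study's filter, and 26 to 30 when a kidney was left out. NZM2410 against TACI-Ig kidneys gave 16 among the brighter genes, 13 under the study's filter and 24 to 27 when a kidney was left out. After renewed normalization the sign turned against 30-week kidneys for Gstm1 (-0.025), Sult1d1 (-0.035), Sult1e1 (0.10), Sult3a1 (0.16), Ugt2a3 (0.21) and Ugt2b5 (0.13), and against TACI-Ig kidneys for Gstm1 (-0.037), Sult1e1 (0.21), Sult3a1 (0.21), Ugt2a3 (0.17) and Ugt2b5 (0.11), or -0.048, 0.21, 0.22, 0.16 and 0.055 in the same order without replicate 2. The cause of these changes was not tested. Same-numbered kidneys did not deviate together in every pair (correlations -0.71 to 0.34), so the numbers were not taken as pairs; with the replicate block the counts were 0 for each NZB/W comparison, 27 for NZM2410 against 30-week and 23 against TACI-Ig kidneys.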
